A study of Mus musculus with 12 samples.

Results

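The nuclear genome encodes most subunits of the mitochondrial respiratory chain and of ATP synthase. In the deposited count table, 97 of 26855 genes carried a symbol beginning with Nduf, Uqcr, Cox followed by a digit from 4 to 8, or Atp5. Of these, 8 were left out because their symbols contain -ps, and the remaining 89 genes are described here. They comprised 36 subunits of complex I, 8 of complex III, 15 of complex IV including tissue isoforms, 16 of complex V, 10 assembly or associated factors, and 4 genes with ordinary symbols that the annotation lists as processed pseudogenes (Ndufa11b, Ndufb4c, Ndufs6b and Cox6c2). After the low-count filter 86 of the 89 were tested; Cox4i2, Ndufa11b and Ndufs6b did not pass it.

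The 12 libraries came from alveolar macrophages, the resident phagocytes of the airspaces, recovered from mouse bronchoalveolar lavage fluid (BALF) 14 days after bleomycin, an agent that injures the lung and leads to fibrosis. All groups had received bleomycin, and an untreated group was not analysed here. The cells were passed through a size filter that gave a BAAM-rich and a BAAM-poor fraction (BAAM stands for border-associated alveolar macrophage) and were then sorted on side scatter (SSC) and on BODIPY, a dye for neutral lipid. The titles form the groups UPBIG, UPSMALL and DOWN, with 4 libraries each; the labels do not state which fraction and gate each title stands for, nor the strain, sex, age or number of mice. The p-values therefore measure the spread between these libraries, which may in part be technical.

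Complex I oxidises NADH and passes its electrons to coenzyme Q, complex III passes them on to cytochrome c, and complex IV delivers them to oxygen. The proton gradient built on the way drives complex V, which makes ATP. A few subunits of each of these complexes are encoded in the mitochondrial genome and the others in the nucleus, so both genomes contribute to each complex. Alveolar macrophages live in an oxygen-rich space, take up surfactant lipid and are known to rely on oxidation of fatty acids.

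Libraries held 17109669 to 23282621 counts in genes. Lyz2, Ftl1 and Fth1, the 3 most abundant nuclear transcripts considered, together took 26.5% to 29.1% of the counts in UPBIG, 15.5% to 23.8% in UPSMALL and 19.5% to 22.0% in DOWN. Scaling by TMM, which sets most genes equal on average, gave factors of 0.858 to 0.896 in UPBIG, 0.992 to 1.17 in UPSMALL and 1.03 to 1.16 in DOWN. All 12 alveolar macrophage markers were detected in each group, with a summed level of 10069 to 12958 counts per 1000000 counts (CPM) in UPBIG, 11579 to 19326 in UPSMALL and 10109 to 13539 in DOWN. Between UPBIG and DOWN 8 of these 12 markers rose and 1 fell, with a median log2 fold change of 0.89. These changes use TMM scaling, while the summed marker levels given here use library totals alone. The summed level of 12 T and NK cell markers was 3.75 to 22.5 CPM in UPBIG, 2.32 to 8.47 in UPSMALL and 31.3 to 113 in DOWN. For 10 dendritic cell markers it was 6.60 to 11.8, 33.1 to 109 and 74.6 to 205 CPM, and for 8 measured neutrophil markers 330 to 365, 169 to 256 and 142 to 180 CPM. Markers at 0 in all 4 libraries of a group were Ncr1, Camp, Elane and Mpo in UPBIG, Ncr1, Gzma, Siglech and Camp in UPSMALL, and Elane and Mpo in DOWN. The part of these differences in the results that follow was not tested, and in bulk libraries fewer cells of a type and less RNA per cell cannot be told apart.

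The promoters of these genes are known as targets of the factors NRF1, GABP (an ETS factor) and YY1 and of estrogen-related receptors. RefSeq windows on GRCm38.p6, each 300 bases long with 250 before and 50 after a transcription start, were found for 71 of the 89 genes. The NRF1 letters (GCGC, then A and any base, then GCGC), searched on both strands like all the others, occurred in 17 of these 71 genes (23.9%) and in 5.19% of the 27025 genes of the table. The ETS letters CCGGAAG occurred in 16 of the 71 genes (22.5%, against 9.93%), and the YY1 letters AAGATGGC in 11 (15.5%, against 3.19%). The TATA letters TATAAA occurred in 5 of them (7.04%, against 15.7%), and the estrogen-related receptor letters TCAAGGTCA in 1 (1.41%, against 0.466%). A match is a description of letters and not a binding site. The median GC content was 58.0% over the 76 windows of these genes and 52.7% over all 32851 windows of the table, and the shares were not matched for it.

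Among the genes called between UPBIG and DOWN (below), 20 of 24 had a window, and the NRF1, ETS and YY1 letters occurred in 3, 6 and 4 of them. Among the other 51 genes with a window, these letters occurred in 14, 10 and 7. Shown first are the windows of the 3 genes whose calls held under every alternative analysis, Ndufa4 and Cox5a of complex IV and Uqcrfs1 of complex III. None of the 5 searched motifs was found in these windows, and they are printed 5′ to 3′ in lower case throughout. Ndufa4 lies on chromosome 6 (window chr6:11907401-11907700, minus strand), Cox5a on chromosome 9 (chr9:57520982-57521281, plus strand) and Uqcrfs1 on chromosome 13 (chr13:30545267-30545566, minus strand).
Ndufa4: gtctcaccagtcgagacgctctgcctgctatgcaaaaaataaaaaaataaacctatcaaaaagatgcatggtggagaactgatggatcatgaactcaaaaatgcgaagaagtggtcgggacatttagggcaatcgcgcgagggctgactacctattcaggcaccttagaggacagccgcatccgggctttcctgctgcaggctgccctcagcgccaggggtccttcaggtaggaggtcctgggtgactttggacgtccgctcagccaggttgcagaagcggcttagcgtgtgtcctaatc
Cox5a: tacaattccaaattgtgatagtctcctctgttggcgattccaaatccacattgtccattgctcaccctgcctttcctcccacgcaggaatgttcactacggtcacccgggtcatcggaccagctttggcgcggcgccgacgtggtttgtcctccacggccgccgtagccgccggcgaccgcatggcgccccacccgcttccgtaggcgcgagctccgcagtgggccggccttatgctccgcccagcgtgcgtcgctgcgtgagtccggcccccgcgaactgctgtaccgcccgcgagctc
Uqcrfs1: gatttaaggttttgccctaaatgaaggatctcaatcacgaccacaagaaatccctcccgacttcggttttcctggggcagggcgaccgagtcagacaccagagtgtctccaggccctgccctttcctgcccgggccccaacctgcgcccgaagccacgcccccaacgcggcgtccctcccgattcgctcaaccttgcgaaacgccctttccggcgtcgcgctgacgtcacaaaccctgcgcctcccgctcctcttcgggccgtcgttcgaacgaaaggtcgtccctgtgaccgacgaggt

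For contrast, the most strongly supported called gene with each of the NRF1, ETS and YY1 letters is shown, with the matches in capitals. Atp5g3, a c-ring gene (chr2:73911277-73911576, minus strand), holds the NRF1 letters from position 263 of the window and the estrogen-related receptor letters from position 199, both on the opposite strand. Cox6b1 (chr7:30626065-30626364, minus strand) holds the ETS letters from position 223, also on the opposite strand. Ndufa3 (chr7:3617123-3617422, plus strand) holds the TATA letters from position 85 and the YY1 letters from position 273, both on the printed strand. Positions count from 1 at the 5′ end of the window.
Atp5g3: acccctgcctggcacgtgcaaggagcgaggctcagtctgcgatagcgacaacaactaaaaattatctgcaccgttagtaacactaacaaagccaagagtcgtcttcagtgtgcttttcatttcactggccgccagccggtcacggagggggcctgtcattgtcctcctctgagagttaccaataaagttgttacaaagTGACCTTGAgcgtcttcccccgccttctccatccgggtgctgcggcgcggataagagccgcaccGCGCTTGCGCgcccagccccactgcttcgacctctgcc
Cox6b1: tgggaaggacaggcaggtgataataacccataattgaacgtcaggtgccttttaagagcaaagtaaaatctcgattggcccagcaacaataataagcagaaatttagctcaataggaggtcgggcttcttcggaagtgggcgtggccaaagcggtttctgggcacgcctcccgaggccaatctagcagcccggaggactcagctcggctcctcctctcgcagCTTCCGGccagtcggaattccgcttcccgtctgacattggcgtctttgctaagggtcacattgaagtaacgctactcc
Ndufa3: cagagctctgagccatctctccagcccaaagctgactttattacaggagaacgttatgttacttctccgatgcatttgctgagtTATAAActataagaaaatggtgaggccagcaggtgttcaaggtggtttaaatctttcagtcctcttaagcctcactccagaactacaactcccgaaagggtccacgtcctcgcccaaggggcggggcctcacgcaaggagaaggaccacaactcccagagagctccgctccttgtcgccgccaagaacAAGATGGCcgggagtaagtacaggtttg

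Comparing UPBIG with DOWN, subunit transcripts of the respiratory chain were mostly higher in UPBIG, the complex IV genes by the most and the assembly factors by the least. Of the 86 tested genes, 23 rose and 1, Uqcrfs1, fell at an adjusted p under 0.05 (edgeR quasi-likelihood test, Benjamini-Hochberg adjustment over 12625 genes). Over all genes tested, 17.5% were called in this comparison, of which the rises made up 9.03% of genes and the falls 8.48%. In 36 of the 86 the 4 UPBIG libraries lay above the 4 DOWN libraries and in 1 below them, against 11% and 10.3% of all genes. The median log2 fold change of the 86 was 0.26, and that of all genes was -0.03. Fold changes were positive for 74 of the 86 (86%), against 47% of all genes.

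The size of the changes and the number of calls depended on the scaling. As a share of all counts, the 89 genes took 2.21% ± 0.13 in UPBIG, 2.37% ± 0.39 in UPSMALL and 2.23% ± 0.14 in DOWN (SD, n = 4), so that the UPBIG and DOWN shares overlapped. When libraries were scaled by their totals alone, 2 of the 86 rose and 12 fell, while 4.1% of all genes rose and 25.6% fell. The median of the 86 became -0.07, and the median of all genes became -0.36. The sign of the difference then turned in 42 of the 86, none of them among the 24 genes called with TMM. Scaling shifts all genes nearly alike, and the smallest called rise, that of Ndufb6, went from 0.33 to 0.012. That no called gene turned thus follows from the size of the called differences and adds no support to the calls. With totals that leave out Lyz2, Ftl1, Fth1 and the mitochondrially encoded transcripts, 6 rose and 2 fell, with medians of 0.10 and -0.19. Over all genes 5.96% rose and 14.8% fell with these totals. Measured from the median of all genes, the 86 stood 0.29 higher on the log2 scale under each of these scalings. Measured in the same way, complex IV stood 0.45 higher under each of these scalings, complex V 0.33 to 0.34, complex I 0.25 to 0.26, complex III 0.22 and the assembly factors 0.11 to 0.12. A change of scaling shifts all genes of a comparison by nearly the same amount. The distances from the median of all genes therefore stay the same by construction, and their agreement adds no support.

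Single libraries also moved the count. It was 14 without UPBIG replicate 3, 15 without UPBIG replicate 4 or DOWN replicate 2, and 37 without UPSMALL replicate 4, whose counts hold the highest share of these genes (2.88%). Of the 24 called genes, 15 passed in each of the 12 fits that left out 1 library, and 3 passed in all 21 alternative fits: Ndufa4, Cox5a and Uqcrfs1.

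**Figure D1:**
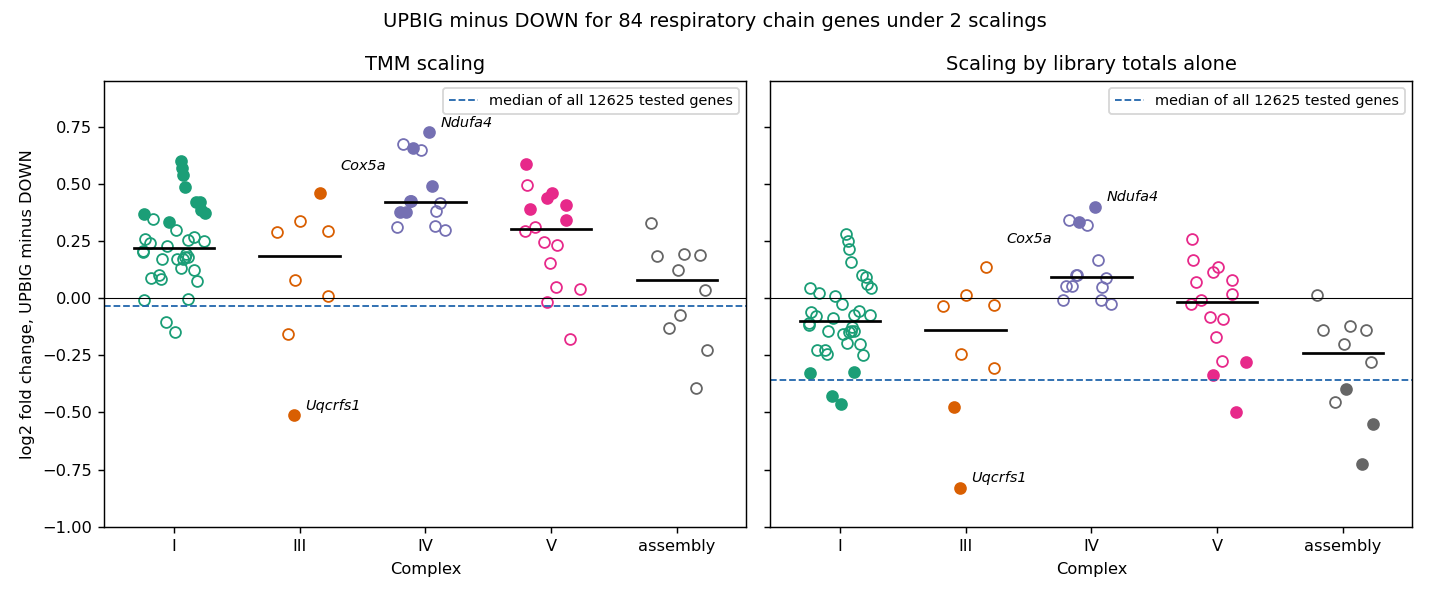
Log2 fold change, UPBIG minus DOWN (vertical axis), for the 84 tested genes of complexes I, III, IV and V and the assembly factors (horizontal axis), with TMM scaling on the left and library totals alone on the right. Each circle is a gene, filled at an adjusted p under 0.05; black lines are medians of each complex and the dashed line is the median of all 12625 genes, at -0.03 on the left and -0.36 on the right. Complex IV has the highest median in both panels, Ndufa4 and Cox5a are the filled circles above 0 in both, and Uqcrfs1 is the lowest circle in both. The scalings shift all genes nearly alike, so the order of the genes is kept by construction.

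Complex IV, cytochrome c oxidase, showed the most even difference. All 14 tested genes had a positive fold change with TMM scaling, 6 of them were called, and the median was 0.42. With library totals alone 11 of the 14 stayed positive and the median was 0.09. Ndufa4, a small subunit at the edge of the complex that was once assigned to complex I, stood at 222, 198, 220 and 259 CPM in UPBIG, at 192, 151, 193 and 212 in UPSMALL and at 134, 121, 135 and 153 in DOWN. All UPBIG values lay above all DOWN values, and UPSMALL overlapped both. The log2 fold change from DOWN to UPBIG was 0.73 ± 0.12 (SE, n = 4 per group, adjusted p = 0.00032 by edgeR), and 0.40 with library totals alone.

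Cox5a encodes a subunit of the matrix side that takes part in allosteric control of the enzyme, and in these libraries it was one of 2 genes called between UPBIG and each of the other groups. The call against UPSMALL was the weaker one, kept in 3 of the 12 fits without 1 library and in 8 of all 21 alternatives. It stood at 745, 682, 807 and 787 CPM in UPBIG, 633, 557, 554 and 623 in UPSMALL, and 483, 446, 516 and 472 in DOWN, so that none of the 3 groups overlapped another. The difference from DOWN to UPBIG was 0.66 ± 0.10 (SE, adjusted p = 0.00015 by edgeR) and 0.34 with library totals alone. Most Cox5a estimates were not whole numbers (11 of 12), and an exon of Gm26631 overlaps it on the opposite strand. Cox5b, the other subunit with this number in its name, was not called, and its estimates were not whole numbers in any library. The ratio of Cox5a to Cox5b counts within a library, which does not depend on scaling, was 1.70 to 1.91 in UPBIG, 1.62 to 1.78 in UPSMALL and 1.38 to 1.49 in DOWN.

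Cox4i1, the ubiquitous isoform of the subunit that binds ATP, had the highest level per kilobase of all complex IV genes. Its UPBIG libraries held 1783, 1898, 1933 and 2033 CPM and its DOWN libraries 1453, 1349, 1400 and 1493, without overlap, and it rose by 0.43 ± 0.10 on the log2 scale (SE, adjusted p = 0.0063 by edgeR). The Cox4i1 estimates were not whole numbers in any library, and the gene shares exon sequence on the opposite strand with Emc8. Cox6b1, which faces the intermembrane space, stood at 956, 833, 1048 and 991 CPM in UPBIG and at 694, 630, 697 and 704 in DOWN, again without overlap. It rose by 0.49 ± 0.11 (SE, adjusted p = 0.0042 by edgeR). With library totals alone these values were 0.10 for Cox4i1 and 0.17 for Cox6b1, and neither was called. Cox6a1 and Cox7a2 were the other 2 called genes.

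The isoforms known from muscle, testis or lung were low. Cox4i2, the isoform described in lung and under low oxygen, had 23 counts over the 12 libraries. Cox6a2, the heart and muscle isoform, lay between 0.734 and 5.38 CPM, and Cox7a1, another muscle isoform, between 4.81 and 13.5. Cox6b2, known as the testis isoform, was the most abundant of them, at 33.3, 27.4, 34.3 and 42.7 CPM in UPBIG, 34.7, 19.5, 40.7 and 39.2 in UPSMALL, and 25.5, 13.0, 22.7 and 26.7 in DOWN. UPBIG lay above DOWN in all libraries, and the difference of 0.65 ± 0.23 (SE) did not pass (adjusted p = 0.067 by edgeR).

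Complex III was split. Uqcrfs1 encodes the Rieske iron-sulphur protein, one of the catalytic subunits and the electron carrier that moves between coenzyme Q and cytochrome c1. It stood at 103, 88.7, 89.1 and 91.8 CPM in UPBIG, at 109, 94.8, 111 and 123 in UPSMALL and at 130, 127, 149 and 125 in DOWN. DOWN lay above both other groups, which overlapped. From DOWN to UPBIG it fell by 0.51 on the log2 scale (SE 0.11, adjusted p = 0.0028 by edgeR), and by 0.83 with library totals alone. It made up 3.41% to 4.22% of the counts of the 8 complex III genes under the naming rule in UPBIG. The share was 4.74% to 5.19% in UPSMALL and 5.86% to 7.08% in DOWN, with no overlap among the 3 groups and no dependence on scaling.

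Uqcrq, a small accessory subunit of complex III, went the other way and was the only complex III gene to rise, from 358, 303, 349 and 384 CPM in DOWN to 465, 394, 539 and 522 in UPBIG (0.46 ± 0.14, SE, adjusted p = 0.027 by edgeR). The large core proteins Uqcrc1 and Uqcrc2 had differences of 0.01 and -0.16 and were not called. Uqcrb, the complex III gene with the highest level per kilobase, stood at 522 to 664 CPM in UPBIG and 440 to 534 in DOWN, which overlapped, and its difference of 0.29 ± 0.11 (SE) did not pass (adjusted p = 0.081 by edgeR). The ratio of Ndufa4 to Uqcrfs1 counts within a library, a contrast chosen after their values were seen, was 2.42 ± 0.30 in UPBIG, 1.71 ± 0.08 in UPSMALL and 1.03 ± 0.14 in DOWN (SD, n = 4).

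**Figure D2:**
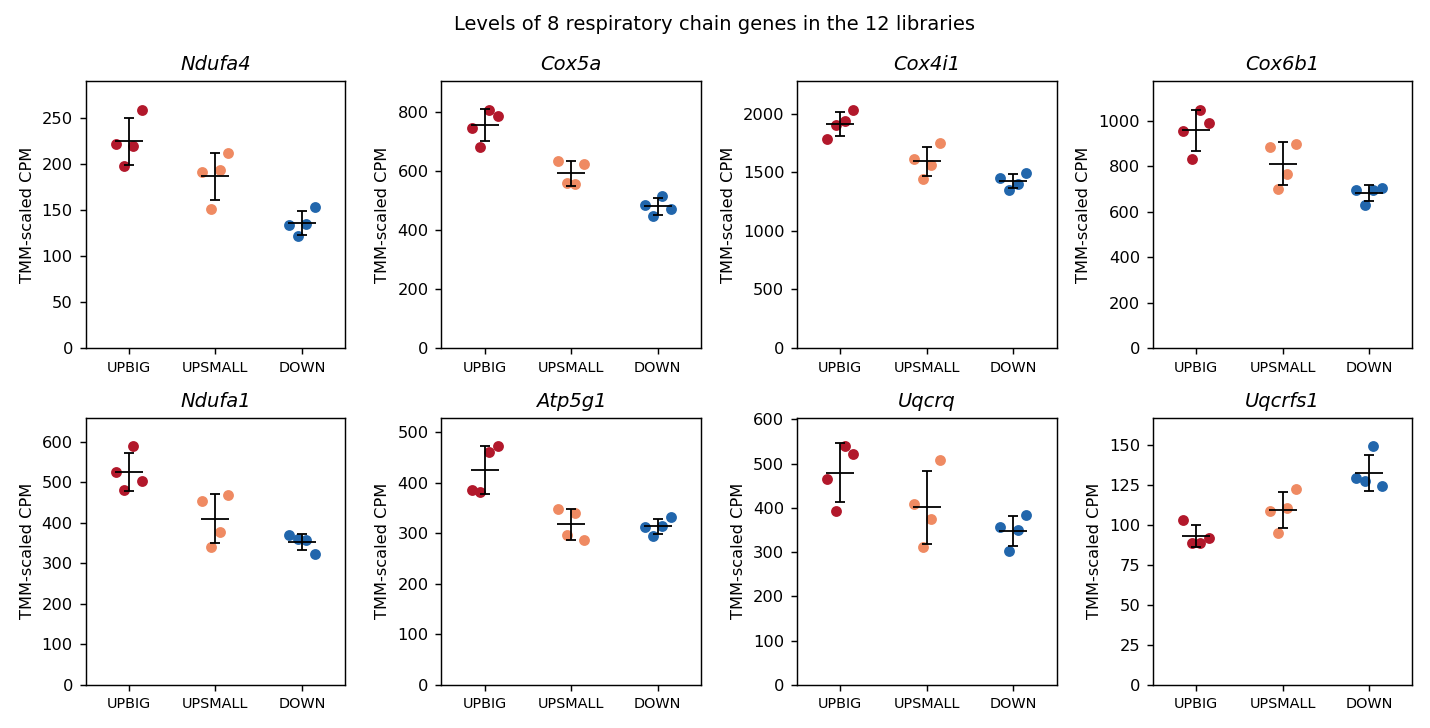
TMM-scaled CPM (vertical axes, from 0) of 8 genes in the 12 libraries by group (horizontal axes); each point is a library, and black bars show mean ± SD of 4. Ndufa4, Cox5a, Cox4i1, Cox6b1, Ndufa1, Atp5g1 and Uqcrq lie higher in UPBIG than in DOWN in every library, and Uqcrfs1 lies lower. For Ndufa4 the UPSMALL libraries, at 151 to 212 CPM, span the range between the other groups.

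Complex I has a peripheral arm, where NADH is oxidised and coenzyme Q is reduced, and a membrane arm that pumps protons. Of its 36 nuclear genes, 10 rose between DOWN and UPBIG and none fell, with a median of 0.22. All 10 were accessory subunits (10 of 29, median 0.26), while none of the 7 core subunits was called (median 0.17). By position, 3 of 10 genes of the NADH module rose, none of 6 of the coenzyme Q module, 4 of 9 of the proximal membrane arm, 2 of 10 of the distal membrane arm, and Ndufab1. Whether these parts differ from one another was not tested.

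Among the accessory genes, Ndufa1, an essential small subunit of the membrane arm encoded on the X chromosome, stood at 527, 481, 589 and 503 CPM in UPBIG, 455, 341, 378 and 468 in UPSMALL and 370, 361, 359 and 324 in DOWN. UPBIG lay above both other groups, which overlapped. The difference from DOWN was 0.57 ± 0.12 (SE, adjusted p = 0.0018 by edgeR). Ndufa3, also of the membrane arm, rose by 0.60 ± 0.12 (SE, adjusted p = 0.0019 by edgeR), from 202, 178, 192 and 190 CPM in DOWN to 250, 260, 335 and 311 in UPBIG. It shares exon sequence on the opposite strand with Tfpt. Ndufab1, the mitochondrial acyl carrier protein, which also serves fatty acid and lipoic acid synthesis in the matrix, stood at 232, 231, 248 and 240 CPM in UPBIG and 188, 183, 179 and 161 in DOWN (0.42 ± 0.10, SE, adjusted p = 0.005 by edgeR). The Ndufab1 estimates were not whole numbers in any library. With library totals alone, the differences of Ndufa1, Ndufa3 and Ndufab1 were 0.25, 0.28 and 0.10, and none was called.

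The core subunits carry the flavin, the iron-sulphur clusters and the coenzyme Q site. Ndufs1, the longest of them and the complex I gene with the lowest level per kilobase, stood at 39.8, 41.7, 34.1 and 41.5 CPM in UPBIG, 23.9, 32.2, 26.3 and 35.9 in UPSMALL and 30.5, 33.6, 40.4 and 34.9 in DOWN, with overlap throughout. It shares exon sequence on the opposite strand with Eef1b2, which held 61133 counts over the libraries against 8129 for Ndufs1. Ndufv1, which binds NADH and flavin, stood at 46.0, 37.2, 29.9 and 33.6 CPM in UPBIG and 43.7, 40.7, 45.0 and 33.2 in DOWN, again overlapping. Ndufv2 was at 251 to 285 CPM in UPBIG and 205 to 249 in DOWN, without overlap, and did not pass (0.17 ± 0.10, SE, adjusted p = 0.25 by edgeR). The 7 core genes ranged from -0.15 to 0.23, and 5 of the 7 differences were positive. With library totals alone Ndufs8 and Ndufv1 were called lower, as were the accessory genes Ndufs4 and Ndufb10. These were 4 of the 36 complex I genes, while 25.6% of all genes were called lower with that scaling.

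Complex V is a rotary machine with a catalytic F1 head, a stalk and a ring of c subunits in the membrane. Of its 16 genes, 6 rose and none fell, with a median of 0.30. Called genes were 2 of the 3 c-ring genes (Atp5g1 and Atp5g3), 1 of 5 F1 genes (Atp5e), 2 of 4 small membrane subunits (Atp5mpl and Atp5j2) and 1 of 4 stalk genes (Atp5j). The catalytic subunits of the head, Atp5a1 (alpha) and Atp5b (beta), did not pass. Atp5b held 488, 468, 402 and 386 CPM in UPBIG against 355, 386, 350 and 317 in DOWN with no overlap before rounding, and its difference was 0.31 ± 0.11 (SE, adjusted p = 0.063 by edgeR). Atp5a1 differed by 0.29 ± 0.10 (SE, adjusted p = 0.053 by edgeR). Both were at or below 0 with library totals alone, at -0.02 for Atp5a1 and -0.01 for Atp5b. Atp5c1, the gamma subunit that turns inside the head, was among the genes called lower under both scalings by totals. With totals alone 3 of the 16 genes were called lower, and with the reduced totals 1. Over all genes the shares called lower were 25.6% and 14.8%.

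The 3 c-ring genes encode the same mature protein behind different import sequences. Atp5g1 stood at 385, 382, 461 and 472 CPM in UPBIG, 348, 296, 339 and 286 in UPSMALL and 312, 294, 315 and 332 in DOWN, so that UPBIG lay above both other groups, which overlapped. It rose by 0.44 ± 0.11 from DOWN to UPBIG (SE, adjusted p = 0.0078 by edgeR). Atp5g3 stood at 579, 580, 557 and 598 CPM in UPBIG, 549, 462, 529 and 595 in UPSMALL and 452, 430, 445 and 438 in DOWN, so that DOWN lay below both. It rose by 0.39 ± 0.10 (SE, adjusted p = 0.0093 by edgeR). Atp5g2 stood at 277 to 366 CPM in UPBIG and 261 to 293 in DOWN, overlapping, and was not called. As a share of the counts of the 3 genes, Atp5g1 took 30.8% to 34.6% in UPBIG, 23.1% to 29.7% in UPSMALL and 29.8% to 31.2% in DOWN, where UPBIG and DOWN overlapped. Atp5g2 took 22.4% to 25.5% in UPBIG, 24.1% to 28.7% in UPSMALL and 26.5% to 27.6% in DOWN, where UPBIG lay below DOWN. The Atp5g1 and Atp5g2 estimates were not whole numbers in any library, while those of Atp5g3 were whole in all 12. Where the divided reads of Atp5g1 and Atp5g2 also matched was not examined, and the levels of these 2 genes are uncertain to that extent.

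The naming rule covers 10 of the factors that help to build or join the complexes. None of these 10 was called between UPBIG and DOWN, against 17.5% of all genes, 6 of the 10 were positive, and the median was 0.08. Their median SE was 0.175, larger than the 0.117 of the subunit genes. Whether they differ from the subunit genes was not tested. Cox7a2l, which joins complexes III and IV into supercomplexes and was the assembly gene with the highest level per kilobase, stood at 264, 262, 243 and 265 CPM in UPBIG, 243, 210, 242 and 279 in UPSMALL and 296, 245, 248 and 299 in DOWN, with overlap among all groups. With library totals alone Cox7a2l, Ndufaf3 and Ndufaf7 were called lower, 3 of the 10, while 25.6% of all genes were called lower with that scaling. Ndufaf7, a methyltransferase that acts on a complex I subunit, had the most negative TMM-scaled difference of the 10, at -0.39.

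Between UPBIG and UPSMALL, 2 of the 86 genes rose and none fell, while 5.7% of all genes were called (3.22% rose and 2.49% fell). In 10 of the 86 the UPBIG libraries lay above all UPSMALL libraries, against 6.47% of all genes, and in none below, against 5.35%. The median was 0.16 and that of all genes -0.03. The called genes were Atp5g1 (0.42 ± 0.11, SE, adjusted p = 0.025) and Cox5a (0.35 ± 0.10, SE, adjusted p = 0.046), both by edgeR. Neither was called with library totals alone, where the differences were 0.15 and 0.07 and where Uqcrfs1 and Ndufv1 were lower in UPBIG (2 called). Over all genes 1.5% were called higher and 11.3% lower with that scaling. Without 1 library, 0 to 2 of the 86 were called higher, and 0 were without UPBIG replicate 3. At an unadjusted p under 0.05, 19 were higher and 1 lower, against 17.9% of all genes in either direction.

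Between UPSMALL and DOWN, no gene of the 86 was called by edgeR, while 1.14% of all genes were called (0.594% rose and 0.547% fell). At an unadjusted p under 0.05, 7 were higher and 2 lower, against 12.9% of all genes in either direction, and DESeq2 called 1, Ndufa4. UPSMALL lay above DOWN without overlap in 2 of the 86 (Cox5a and Atp5g3) and below it in 2 (Uqcrfs1 and Ndufaf7), against 3.87% and 4.38% of all genes; these 4 are named after their values were seen. Ndufa4 had a difference of 0.46 ± 0.12 (SE, adjusted p = 0.071 by edgeR), Cox5a of 0.30 ± 0.10 (adjusted p = 0.17) and Uqcrfs1 of -0.28 ± 0.11 (adjusted p = 0.26). All 14 tested complex IV genes were positive here with TMM scaling and with library totals alone, with medians of 0.25 and 0.21, and 2 of the 10 assembly genes were. The scaling moved the median of all genes by less in this comparison, from -0.0033 to -0.05.

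The 3 comparisons share their groups, so their values are given side by side without a test of likeness. Group means ran in the order UPBIG, UPSMALL, DOWN from high to low in 54 of the 86 genes (62.8%, against 23.5% of all genes), among them 13 of 14 of complex IV, 24 of 36 of complex I, 11 of 16 of complex V, 4 of 8 of complex III and 1 of 10 assembly genes. This order depends on the scaling: it held in 6 of the 86 with library totals alone, 2 of them of complex IV, and in 37 with the reduced totals, 10 of them of complex IV. In 6 of the 10 assembly genes UPSMALL was lowest. A joint test for any difference among the groups called 15 of the 86, against 13.8% of all genes. This count ran from 7 without UPBIG replicate 4 to 25 without UPSMALL replicate 4.

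Because the counts of one complex can be set against those of the others within a library, the makeup of the group of 89 genes does not depend on scaling between libraries. Complex IV took 30.7% ± 0.64 of their counts in UPBIG, 29.8% ± 0.74 in UPSMALL and 28.2% ± 0.64 in DOWN (SD, n = 4). The 4 UPBIG libraries (30.1% to 31.4%) and the 4 UPSMALL libraries (29.1% to 30.7%) both lay above the 4 DOWN libraries (27.5% to 29.0%), and overlapped with each other. Complex III took 9.60% ± 0.20, 9.81% ± 0.17 and 10.1% ± 0.20, and assembly genes 1.79% ± 0.16, 1.90% ± 0.05 and 2.23% ± 0.12 (SD, n = 4). For both, the DOWN libraries lay above the UPBIG libraries. The assembly share rests largely on Cox7a2l, with 61643 counts over the libraries, while the next gene, Ndufaf8, had 14040. It does not describe the assembly genes one by one, and none of them was called. Complex V, at 24.2% to 25.1% in UPBIG and 25.1% to 25.8% in DOWN, and complex I, at 32.9% to 33.5% and 33.4% to 34.6%, met at the edges. Differences of this kind in share of counts give no statement on any single complex in absolute terms.

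**Figure D3:**
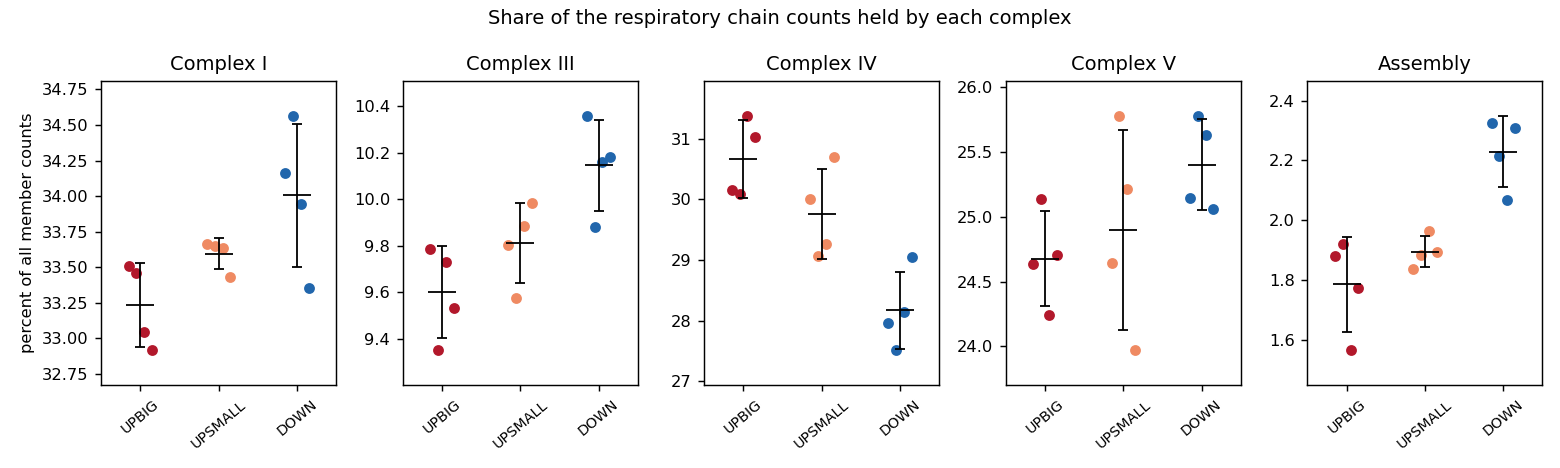
Share of the counts of all 89 genes (vertical axes, percent, each with its own range and not starting at 0) held by complexes I, III, IV and V and by the assembly factors in each library, by group (horizontal axes); points are libraries and bars are mean ± SD of 4. The complex IV share is 30.7% in UPBIG and 28.2% in DOWN on average, and the assembly share is 1.79% and 2.23%. The assembly share rests largely on Cox7a2l.

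Coding length went with the fold changes of these genes. Across 84 of the 86 with a coding length (156 to 2181 nucleotides), Spearman's rho between coding length and log2 fold change was -0.64 for UPBIG against DOWN, -0.20 for UPBIG against UPSMALL and -0.67 for UPSMALL against DOWN. The genes share the same libraries and are not independent, so these are descriptions. Across 8512 other genes in the same length range rho was -0.07, -0.07 and -0.04, and across the 995 of these with at least 100 CPM it was -0.05, -0.005 and -0.12. Of the 42 members with at most 426 coding nucleotides, 19 rose between DOWN and UPBIG (median 0.37), and of the 42 longer ones 4 rose and 1 fell (median 0.16). Ndufv3, with 1404 nucleotides, and Uqcrfs1, with 822, were called among the longer genes. In complex I, all 7 core subunits and 14 of the 29 accessory subunits are among the longer genes. Of these 14 accessory genes 2 rose (median 0.19), and of the 15 shorter ones 8 rose (median 0.35), while none of the 7 core genes did (median 0.17). The part of length in the counts was not tested.

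**Figure D4:**
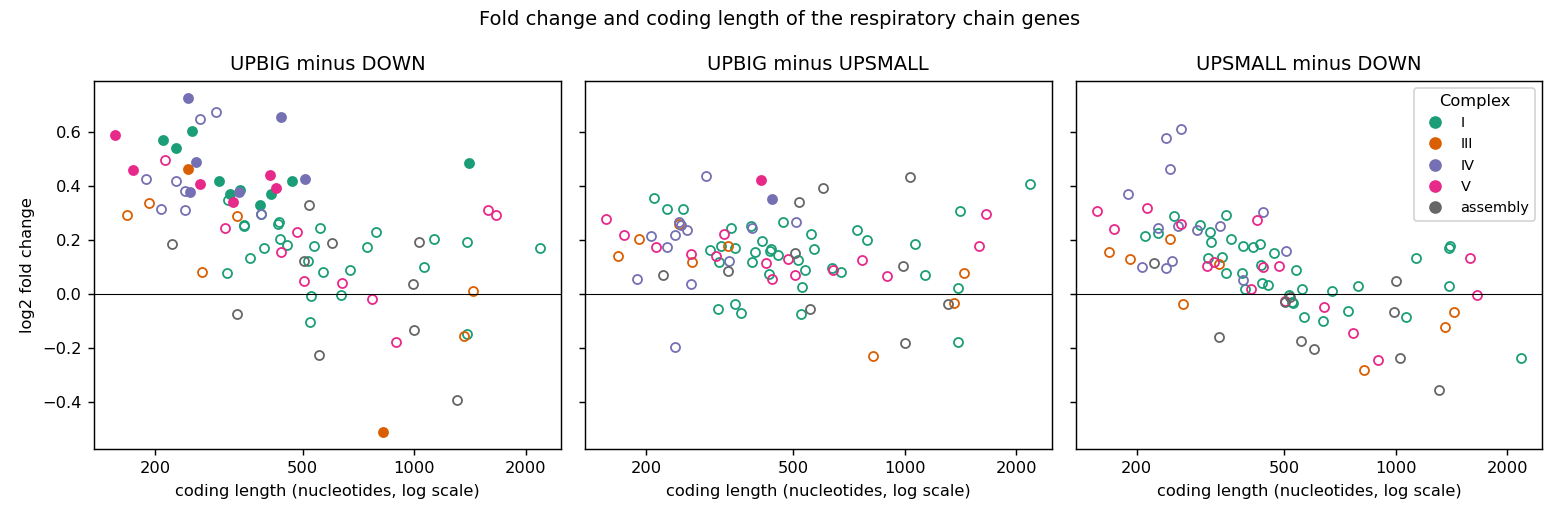
Log2 fold change (vertical axes) against coding length in nucleotides (horizontal axes, log scale) for 84 genes in the 3 comparisons; colours mark the complex and filled circles an adjusted p under 0.05. Short genes lie higher in the left and right panels (rho -0.64 and -0.67) and little relation is seen in the middle (rho -0.20).

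Other genes of the pathway, from lists arranged by function, were read from the same fit. Over all genes tested, 9.03% rose and 8.48% fell in UPBIG against DOWN, and 3.22% and 2.49% against UPSMALL. Between UPSMALL and DOWN 0.594% rose and 0.547% fell. Of the mitochondrially encoded subunits, 11 of 13 rose in UPBIG against DOWN and 10 of 13 against UPSMALL, and none was called between UPSMALL and DOWN. For each nuclear count of the same complex, a library held 1.20 ± 0.13 mitochondrially encoded counts of complex I in UPBIG, 0.712 ± 0.12 in UPSMALL and 0.750 ± 0.14 in DOWN (SD, n = 4). For complex III, whose only mitochondrial gene is mt-Cytb, the ratio was 1.82 ± 0.34, 0.917 ± 0.31 and 1.09 ± 0.21. For complex IV it was 2.41 ± 0.41, 1.66 ± 0.30 and 1.85 ± 0.25, and for complex V 1.59 ± 0.13, 0.914 ± 0.13 and 0.975 ± 0.12. In all 4 complexes the 4 UPBIG libraries lay above those of both other groups. These ratios do not depend on scaling between libraries.

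Complex II, which links the chain to the citric acid cycle and is wholly nuclear-encoded, had 2 of 4 genes higher in UPBIG than in DOWN. Sdha, its flavoprotein subunit, stood at 175, 191, 177 and 193 CPM in UPBIG, 107, 115, 124 and 116 in UPSMALL and 126, 120, 117 and 124 in DOWN, so that UPBIG stood apart from both. The differences were 0.59 ± 0.10 from DOWN (SE, adjusted p = 0.00023) and 0.67 ± 0.10 from UPSMALL (SE, adjusted p = 0.00015), both by edgeR; with library totals alone they were 0.27, not called, and 0.39, called. Cytochrome c (Cycs) and cytochrome c1 (Cyc1) have symbols outside the naming rule and are in none of the counts per complex. Of these 2, Cycs rose from DOWN to UPBIG (0.32) and Cyc1 was not called (-0.21).

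Of 24 complex IV assembly genes, 5 rose in UPBIG against DOWN and none fell. Cox10, which makes the heme A precursor of cytochrome oxidase, stood at 21.9, 23.1, 17.9 and 16.8 CPM in UPBIG, 13.5, 6.70, 7.65 and 9.47 in UPSMALL and 9.96, 6.31, 6.49 and 7.73 in DOWN. Its differences were 1.39 ± 0.23 from DOWN (adjusted p = 0.00027) and 1.10 ± 0.23 from UPSMALL (adjusted p = 0.005) by edgeR, and both were called with library totals alone, at 1.07 and 0.82. Cox16, Coa5, Surf1 and Cmc2 were the others, at 0.68, 0.42, 0.44 and 0.55. No gene of 11 complex I assembly genes outside the naming rule or of 4 complex II assembly genes was called, and of 6 complex III assembly genes 1, Ttc19, fell, by 0.72. Atpif1, the inhibitor of ATP hydrolysis by complex V, was the 1 called of 6 genes of complex V assembly and inhibition, and rose by 0.65 ± 0.12 (SE, adjusted p = 0.00091 by edgeR).

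Among smaller lists, Higd2a (0.36) and Romo1 (0.78) rose and Stoml2 fell (by 0.56) of 4 genes grouped here as supercomplex factors. Whether Romo1 has such a role was not examined. Chchd6 rose (0.82) of 6 cristae genes, and Coq7 (0.56) and Coq8b (1.13) rose of 13 genes of coenzyme Q synthesis. None of 3 ADP and phosphate carriers was called, nor was AA467197, an alternative subunit of complex IV induced in inflammation (-0.25). Both measured uncoupling proteins rose. Ucp2, which is abundant in macrophages, stood at 1657, 1502, 1809 and 1846 CPM in UPBIG, 1263, 1333, 1481 and 1149 in UPSMALL and 1315, 1146, 1250 and 1175 in DOWN, a difference of 0.48 ± 0.11 from DOWN (SE, adjusted p = 0.0049 by edgeR) that was 0.16 and not called with library totals alone. Ucp3 was low, at 2.17 to 4.42 CPM in UPBIG and 0.649 to 1.32 in DOWN.

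Of 12 tested transcripts for known regulators of these genes none rose and 1 was called, Nrf1, which fell. Over all genes 9.03% rose and 8.48% fell, so 1 fall in 12 is near the general share. Nrf1 fell by 0.83 (SE 0.25, adjusted p = 0.026 by edgeR), from 11.0, 10.6, 15.9 and 12.1 CPM in DOWN to 4.92, 8.49, 8.38 and 6.00 in UPBIG, without overlap. Gabpa, a GABP subunit, stood at 5.23, 8.01, 11.6 and 8.59 CPM in UPBIG and 10.6, 12.3, 11.3 and 17.6 in DOWN, and its difference of -0.63 ± 0.23 (SE) did not pass (adjusted p = 0.069 by edgeR). Exons of Gabpa overlap those of Atp5j on the opposite strand. Tfam (-0.48) and Esrra (0.01) were not called, and Ppargc1a was at 0 in 11 of the 12 libraries. Of the genes outside the naming rule that are named here as called between UPBIG and DOWN, Cox10, Romo1, Coq8b, Ucp3, Ttc19, Stoml2 and Nrf1 were also called with library totals alone, while Sdha, Sdhc, Cycs, Cox16, Coa5, Surf1, Cmc2, Atpif1, Higd2a, Chchd6, Coq7 and Ucp2 were not.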

How the data were processed

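Full-length cDNA was made with the SMART-Seq HT kit from polyadenylated RNA of directly lysed cells, per the labels' protocols. The deposited table holds expected counts per gene that the authors made with STAR and RSEM on mm10, per the submitters' processing notes; of versions, annotation and strandedness nothing is given in the sources used here. Of all values, 13.8% were not whole numbers, and all were rounded. Gene positions, exon overlaps and lengths came from GENCODE M21 (mm10), levels per kilobase from the shortest principal transcript, and promoter windows from RefSeq; 26775 of 26855 identifiers had a symbol.

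One fit of all 12 libraries used edgeR 4.0.16 under R 4.3.3 (filterByExpr, TMM, robust quasi-likelihood F tests, group only), with Benjamini-Hochberg adjustment over 12625 genes and calls at an adjusted p under 0.05. Each SE of a log2 fold change is its absolute value divided by the square root of its F value. It thus rests on the spread estimated from all 12 libraries. CPM values use TMM-scaled totals, apart from the summed marker levels, which use library totals alone. DESeq2 1.42.0, limma 3.58.1 (voom), other scalings, filters, a replicate block and leaving out each library were alternatives. The steps were tested on simulated data. No 2 libraries agreed within sampling noise. The members and lists were chosen with earlier results of these data known. Genes were named by rule: in each comparison the 8 called members with the smallest p and every called member of the rarer direction; always the core and F1 subunits, Cox4i1, Cox5a, Ndufa4, Cox7a2l, the tissue isoforms and the c-ring genes; in each complex the highest and lowest level per kilobase; of other lists up to 5 called genes and chosen regulators. Any other member named was chosen after its values were seen. Protein sequences were not used here, and the values of 1 gene under the naming rule are not reported here.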

Additional observations from a re-analysis of the deposited data

Results flagged for a closer look

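The 4 libraries of a group were checked for a library far from its group for the named members and the shares, in 135 sets of 4. In 6 sets the gap between 1 library and the nearest other took up nearly all of the group's range; chance gives about 1 in 20 sets. Cox6b1 was at 629.9 CPM in DOWN replicate 2 and at 694 to 704 in the others, and Cox4i2 was at 0.436 CPM in UPBIG replicate 1 and at 0 in the others. Atp5a1 was at 368 CPM in UPBIG replicate 2 and 296 to 306 in the others, and Cox7a2l was at 242.7 CPM in UPBIG replicate 3 and 262 to 265 in the others. In UPSMALL replicate 4, complex I took 33.4% of the members' counts, against 33.6% to 33.7% in the others, and Atp5g1 took 23.1% of the c-ring counts, against 29.0% to 29.7%.

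Ndufb1-ps was left out by its symbol but is abundant, with 68863 counts over the 12 libraries, far above the limit that a count of 0 allows. The annotation lists it as a noncoding RNA of a bidirectional promoter, while its symbol is that of the complex I subunit Ndufb1 with a suffix for pseudogenes. Whether it encodes that subunit was not examined, so what its level stands for is uncertain. It stood at 286 to 405 CPM in UPBIG, 225 to 389 in UPSMALL and 219 to 264 in DOWN, and was higher in UPBIG than in DOWN by 0.48 ± 0.15 on the log2 scale (SE, n = 4 per group, adjusted p = 0.027 by edgeR).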

How the results depend on the processing

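For UPBIG against DOWN, the 23 members called higher became 2 with library totals alone, 6 with totals without the abundant and mitochondrial transcripts, 36 with DESeq2 and 14 to 37 without 1 library. Over all genes 4.1%, 5.96% and 10.8% were called higher with these totals and with DESeq2. The 1 called lower became 12 and 2 under these totals, where 25.6% and 14.8% of all genes were called lower. The median became -0.067 and 0.10. For UPBIG against UPSMALL, the 2 called higher became 0 under both totals and with only the 8 libraries compared, 1 without a filter, 6 with DESeq2, 5 with voom and 0 to 2 without 1 library. With totals alone 2 were called lower, against 11.3% of all genes. Under the 2 totals the median became -0.13 and 0.030. For UPSMALL against DOWN, the count of 0 became 1 with DESeq2, 2 without a filter (Ndufa4 and Cox6b2) and 0 to 1 without 1 library. The joint count of 15 became 9 and 4 under the totals, 23 with DESeq2 and 7 to 25 without 1 library. Apart from the replicate block (below), other member counts moved within 1.5 times and other member medians within the pooled SD of the library medians. Calls of single named genes moved more, counted per gene, comparison and fit. For UPBIG against DOWN all tested named genes were followed, and for the other comparisons only chosen ones. Leaving out 1 library lost a call in 78 cases and gained one in 12, with 773 unchanged. Lost and gained calls were 26 and 9 with totals alone, and 16 and 2 with the reduced totals. They were 6 and 3 with only the 8 libraries, and 4 and 2 without a filter. DESeq2 gained 5.

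With counts of the abundant and mitochondrial transcripts left out of the denominator, the UPBIG to DOWN ratio of mean shares was 1.11 for all members, 1.08 for complex I, 1.05 for III, 1.21 for IV, 1.08 for V and 0.884 for assembly. The assembly value rests largely on Cox7a2l. For UPBIG against DOWN the sign turned in 42 of the 86 tested members with totals alone and in 14 with the reduced totals. Among the genes reported here under the naming rule it turned with totals alone, in this comparison, in Atp5a1 (-0.024), Atp5b (-0.0089), Atp5g2 (-0.17), Atp5s (-0.14), Esrra (-0.30), Ndufs1 (-0.15), Ndufs3 (-0.088), Ndufs7 (-0.23), Ndufv2 (-0.14) and Uqcrb (-0.034). For UPBIG against UPSMALL it turned in 63 of the 86 with totals alone, 17 of them among the 24 called between UPBIG and DOWN. With the reduced totals it turned there in 23, 2 of them among these 24. For UPSMALL against DOWN it turned in 6 and 4. Only chosen genes were followed singly there, such as Ndufa4 for UPBIG against UPSMALL (-0.024) and Atp5g1 for UPSMALL against DOWN (-0.030), both with totals alone. With the reduced totals it turned, for UPBIG against DOWN and among these named genes, in Atp5g2 (-0.0022), Esrra (-0.14) and Ndufs7 (-0.067). Of the genes followed singly in the other comparisons, Atp5g1 turned for UPSMALL against DOWN (-0.016). Ndufs8, near 0, turned positive with DESeq2-style size factors (0.013), DESeq2 (0.013), no filter (0.0037) and 8 libraries (0.0024). Without 1 library, Ndufs8 ran from -0.066 to 0.065, Esrra from -0.073 to 0.21 and Atp5g1, UPSMALL against DOWN, from -0.023 to 0.072. Beyond the construction of the scalings, the causes were not tested.

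With the replicate number as a block, 39 members were called higher in UPBIG against DOWN, 6 in UPBIG against UPSMALL, 2 in UPSMALL against DOWN (Ndufa4 and Cox6b2) and 31 jointly. Deviations of same-numbered libraries correlated at -0.029 to 0.15, over 0.1 in 6 of 12 pairs, and 7 of 12 libraries correlated best with their own number in both other groups; the labels do not say that numbers pair libraries, so the block was not used.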
